A study of Mus musculus with 3 samples.

Results

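A set of 9 genes of retinoid metabolism was read in stromal cells of the mouse mesenteric lymph node, the node that drains the small intestine and colon. They were chosen by name from the gene name column of the scanner files, with every probe kept, and gave 9 of the 28080 gene names on the array and 12 of its 41156 probes. Aldh1a1, Aldh1a2 and Aldh1a3 encode retinal dehydrogenases, Rdh10 a retinol dehydrogenase, Cyp26b1 a retinoic acid hydroxylase, Rbp7, Crabp1 and Crabp2 intracellular retinoid-binding proteins, and Stra6 a membrane receptor for retinol-binding protein. The cells came from wild-type C57BL/6NCrl mice and were sorted, after collagenase digestion and depletion of CD45-bearing cells, as CD45- CD24- cells. Lymphatic endothelial cells (LEC) were gp38+ CD31+, blood endothelial cells (BEC) gp38- CD31+ and fibroblastic reticular cells (FRC), the mesenchymal cells of the lymph node network, gp38+ CD31-. Each population had 1 single-colour array, and the labels do not give the number of mice or sorts behind each RNA.

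Vitamin A reaches tissues as retinol bound to a plasma carrier, enters cells through STRA6 or by other routes, and is held there by cellular retinol-binding proteins. Retinol is oxidised reversibly to retinal by retinol dehydrogenases such as RDH10, and retinal irreversibly to retinoic acid by the ALDH1A enzymes, which is the step that commits it to signalling. CRABP proteins carry retinoic acid inside the cell, CYP26 enzymes degrade it, and receptors of the RAR and RXR families bind it at target genes. In gut-draining nodes, retinoic acid made by dendritic cells and by stromal cells is known to give activated lymphocytes the receptors that direct them to the intestine.

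Values are log2 of the background-subtracted probe signal over the array's own 75th percentile, so 0 is a probe at that percentile, and folds are ratios of 1 probe's signal between a pair of arrays. Levels of different probes are not comparable, because probes differ in how brightly they hybridise. With 1 array per population no difference has a replicate check and no test was made. A difference of 4-fold or more is used below as a mark of size only. The array measures RNA from whole populations, so fewer cells of a type and less RNA per cell cannot be told apart. The 3 arrays lay on 1 slide, 59.7% to 60.5% of probes were well above background on each, and repeat spots of a probe had a median SD of 0.053 to 0.058 (log2) within an array. Each of the 12 retinoid probes had a single spot per array, for which that spot error gives an SD of 0.076 to 0.079 (log2) on a difference. This covers neither mice, sorts nor amplifications. Different probes of the same gene are a wider guide, since over 4750 genes with several measured probes the log2 differences from the probes spanned a median of 0.37 between LEC and FRC, 0.54 between BEC and FRC, and 0.43 between LEC and BEC. The slope of signal on spike-in amount was 1.00 in LEC, 0.919 in BEC and 0.821 in FRC, so a given RNA ratio can give log2 differences of unequal size on these arrays.

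The sorted populations carried the markers of their labels. The lists counted here include genes of the sort gates, so calls of these genes are not independent of the sort. They are Pdpn (gp38) in the FRC and lymphatic lists and Pecam1 (CD31) in the blood endothelial list. Above the 4-fold mark stood 11 of 12 lymphatic markers in LEC relative to FRC, and 11 of 12 blood endothelial markers in BEC relative to FRC. The endothelia shared much of this, with 10 lymphatic markers above the mark in BEC and 11 blood endothelial ones in LEC, relative to FRC. Between LEC and BEC, 10 of the 12 lymphatic markers were past it toward LEC and 7 of the 12 blood endothelial ones toward BEC. Of 16 FRC markers, 12 were lower by 4-fold or more in LEC and 12 in BEC, relative to FRC, and Thy1 was higher in LEC past the mark. The labels state a mean sorted purity of 88% ± 1.5, without saying what the ± stands for. The 16 FRC markers summed to 294 in LEC, 530 in BEC and 3079 in FRC, in units of the 75th percentile signal. Most of the BEC sum was Ccl21a, a chemokine gene at 8.82 in BEC and 8.66 in FRC, and without it the other 15 summed to 229 in LEC, 78.2 in BEC and 2674 in FRC. Of the 16, 16 were well above background in LEC, 14 in BEC and 16 in FRC. Grem1 and Tnfsf11 were the ones not well above background in BEC.

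The probe sequences show which stretch of transcript was read for the genes that the results turn on. Each probe is 60 bases long and is given 5′ to 3′ in the sense of the transcript, with its position on mouse build mm9 as in the files. For probes that may lie in untranslated sequence 30 bases are shown, and the 2 longer ones are whole. No exon annotation on that build was used, so exon and untranslated region are not stated. Capitals mark the polyadenylation hexamers AATAAA or ATTAAA, which stand near the 3′ end of transcripts. On the sense strand 7.48% of all probes on the array hold either hexamer.
Aldh1a1, chr19:20717764-20717823, plus strand, bases 1 to 30: gactagttgtgacttaagctctgtccctca
Aldh1a2, chr9:71143931-71143990, plus strand, bases 1 to 30: aaccagctagctcccttcaacccacagtat
Aldh1a3, brighter probe, chr7:73535785-73535844, minus strand, bases 31 to 60: gttcagcaatgaaaaAATAAAgttggacac
Aldh1a3, dimmer probe, chr7:73553907-73553966, minus strand, bases 1 to 30: actatttgcttctctttttctaaacctatt
Rdh10, brighter probe, chr1:16122062-16122121, plus strand, bases 1 to 30: ATTAAAtgtttagagacctggttaatccac
Rbp7, brighter probe, chr4:148823823-148823882, minus strand, bases 1 to 30: ttgtcattggaaagatgtcacacagcctgt
Rbp7, dimmer probe, chr4:148827568-148827627, minus strand, whole: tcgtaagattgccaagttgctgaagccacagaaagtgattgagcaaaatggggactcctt
Stra6, chr9:58000379-58000990, plus strand, whole: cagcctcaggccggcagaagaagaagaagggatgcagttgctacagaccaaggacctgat
The Stra6 probe of 60 bases spans 612 bases of the genome, so it crosses at least 1 splice junction. The brighter Aldh1a3 and Rdh10 probes hold a hexamer. The dimmer Aldh1a3 probe was designed on a cDNA clone record and lies 18122 bases from the brighter one, which was designed on the RefSeq transcript.

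Of the 9 genes, 7 had a probe well above background on every array, and 2, Crabp1 and Crabp2, on none. By probe the count was 10 of 12 in LEC, 9 in BEC and 10 in FRC. The retinal dehydrogenases were brightest in FRC, Rbp7 was brightest in BEC, and Rdh10, Cyp26b1 and Stra6 differed by less than 4-fold in each comparison. For LEC against FRC, 4 of the 7 genes compared passed the 4-fold mark, beside 10.8% of all 18443 genes compared. Rbp7 was the 1 higher in LEC (4.89% of all genes) and the dehydrogenases were the 3 higher in FRC (5.93%). For BEC against FRC the same 4 genes passed it, beside 14.2% of 18833 genes, with 1 higher in BEC (6.58%) and 3 higher in FRC (7.57%). For LEC against BEC, Rbp7 alone of the 7 passed it, beside 6.78% of 18324 genes. It was higher in BEC (3.38%), and none was higher in LEC (3.39%). The median log2 difference over the 7 was -1.71 for LEC minus FRC, beside 0.03 over all genes. It was -1.08 for BEC minus FRC, beside 0.10, and -0.63 for LEC minus BEC, beside -0.07.

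**Figure D1:**
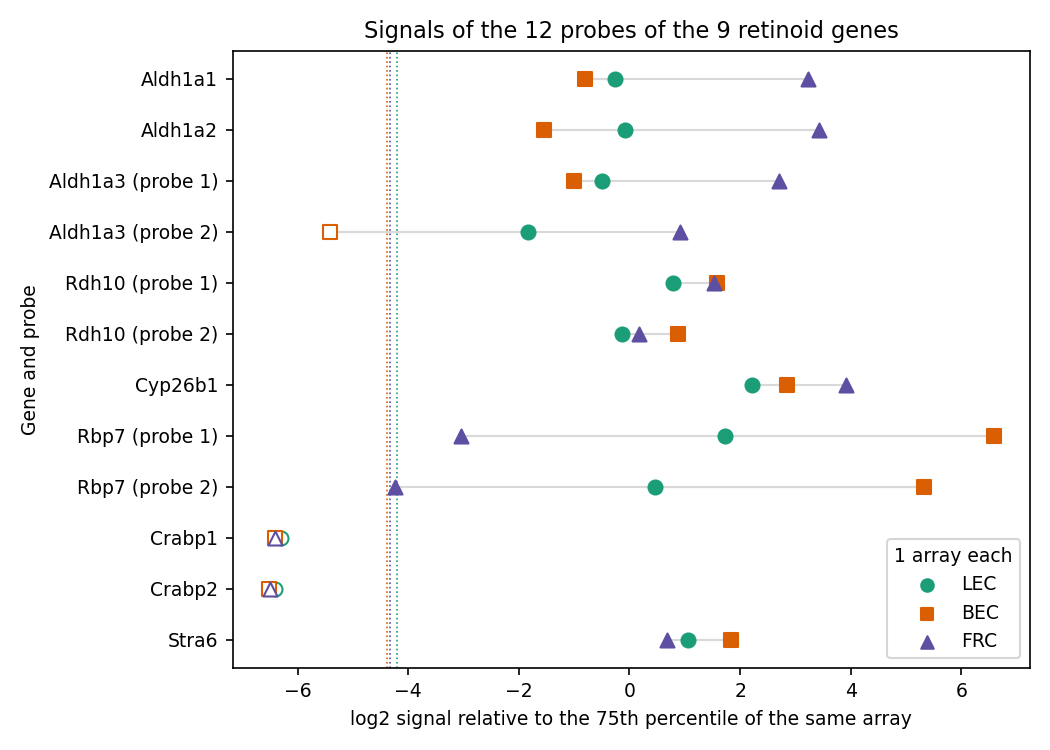
Signal of each of the 12 retinoid probes on the LEC, BEC and FRC arrays, as log2 relative to the 75th percentile of the array, with open symbols for values not well above background. The 3 retinal dehydrogenases are highest in FRC, the Rbp7 probes lie at 6.58 and 5.32 in BEC and at -3.05 and -4.23 in FRC, and Crabp1 and Crabp2 are dim on every array. Dotted lines mark the lowest value well above background on each array.

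The first step of the pathway was read through Rdh10, which oxidises retinol to retinal and is needed for embryonic retinoic acid synthesis. Its brighter probe was at 0.79 in LEC, 1.58 in BEC and 1.54 in FRC. BEC and FRC differed by 0.04 (1.03-fold), and LEC was 1.67-fold lower than FRC and 1.72-fold lower than BEC. The second probe, 584 bases away, was at -0.13 in LEC, 0.89 in BEC and 0.18 in FRC. It put LEC lowest as well, 1.23-fold below FRC and 2.02-fold below BEC, but put BEC 1.64-fold above FRC. The probes thus gave 0.04 and 0.71 for BEC minus FRC, and over the processing settings tried that difference ran from -0.06 to 0.38, with no settled direction.

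The second step, carried out by the retinal dehydrogenases, had its brightest signals in FRC. Aldh1a1, the retinal dehydrogenase also known as RALDH1, was at -0.26 in LEC, -0.81 in BEC and 3.24 in FRC. Its LEC signal stood at 15.3 times, its BEC signal at 11.8 times and its FRC signal at 190.4 times the dimmest signal still well above background on each array, so all 3 arrays measured it. LEC was 11.3-fold lower than FRC and BEC 16.5-fold lower, and LEC and BEC differed by 0.55 (1.47-fold). The gene has a close mouse relative, Aldh1a7, whose own probe did not follow, at -2.85 in LEC, -2.99 in BEC and -3.49 in FRC. Whether the Aldh1a1 probe also hybridises to Aldh1a7 transcripts was not tested.

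Aldh1a2, or RALDH2, is the main retinoic acid producing enzyme of the early embryo and is widely used as a marker of retinoic acid producing cells in the gut and its nodes. It was at -0.09 in LEC, -1.55 in BEC and 3.42 in FRC. FRC was again far above both endothelia, and here LEC also stood above BEC, by 2.75-fold. LEC was 11.4-fold lower than FRC and BEC 31.3-fold lower. On the linear scale of the scanner the probe read 252 in LEC, 124 in BEC and 4155 in FRC. By rank, Aldh1a2 was the 206th lowest of 18806 genes for BEC minus FRC and the 426th lowest of 18384 for LEC minus FRC. Its LEC minus BEC difference of 1.46 stands beside a median of 1.53 over the 16 FRC markers. Between LEC and BEC, 4 of those markers passed the 4-fold mark toward LEC and 1 toward BEC. The part of FRC in the LEC values of the dehydrogenases was not tested.

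Aldh1a3, or RALDH3, known for its part in eye and nasal development, followed the same order. Its brighter probe was at -0.49 in LEC, -0.998 in BEC and 2.70 in FRC. LEC was 9.13-fold lower than FRC and BEC 12.96-fold lower, while LEC and BEC differed by 0.51 (1.42-fold). The second probe was at -1.83 in LEC and 0.91 in FRC and was not well above background in BEC. It gave LEC 6.67-fold below FRC and BEC at least 39.0-fold below FRC, where the bound sets BEC at the lowest signal well above background. It also set LEC at least 5.84-fold above BEC, so the probes, which share the order FRC above LEC above BEC, disagree on how far LEC and BEC lie apart. Averaging the probes put Aldh1a3 in LEC past the 4-fold mark relative to BEC, which the brighter probe alone did not.

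All 3 retinal dehydrogenases were therefore 9.13-fold to 11.4-fold lower in LEC than in FRC by their brightest probes, and 12.96-fold to 31.3-fold lower in BEC than in FRC. Across the processing settings their LEC minus FRC differences stayed between -4.04 and -2.94, and their BEC minus FRC differences between -5.07 and -3.27. Their order among themselves is not a comparison of enzyme amounts, since each was read by its own probe.

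**Figure D2:**
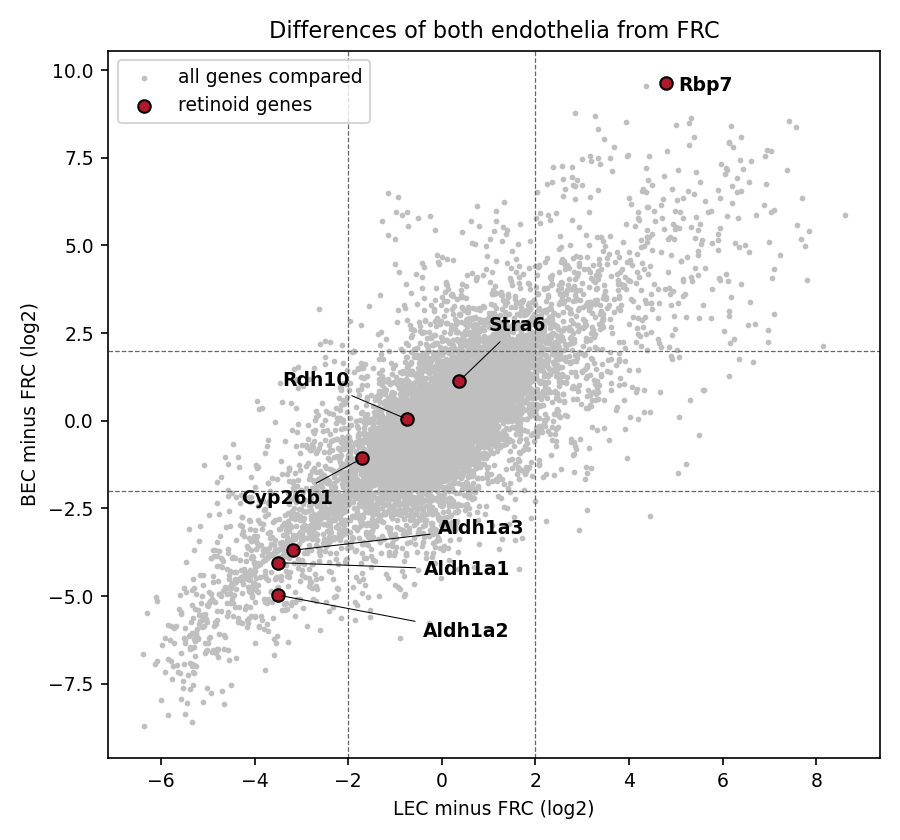
Log2 difference LEC minus FRC (horizontal) against BEC minus FRC (vertical) for all genes compared in both (grey) and for the 7 retinoid genes that were measured. Aldh1a1, Aldh1a2 and Aldh1a3 lie at the lower left, between -3.51 and -3.19 on the horizontal axis, Rbp7 lies at the top at 4.78 and 9.63, and the grey point beside it is Lhx6, whose probe was not well above background on every array.

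Breakdown was read through Cyp26b1, which hydroxylates retinoic acid and is itself known to be induced by it. The probe, on chr6:84521952-84522011 of the minus strand, was at 2.21 in LEC, 2.84 in BEC and 3.92 in FRC. The order was FRC, then BEC, then LEC, and each array was far above background, at 84.8 times the lowest such signal in LEC, 149 times in BEC and 305 times in FRC. LEC was 3.26-fold lower than FRC and BEC 2.11-fold lower, below the 4-fold mark, and LEC was 1.55-fold lower than BEC. The related Cyp26a1, the other main retinoic acid hydroxylase, was not well above background on any array.

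Among the binding proteins, Rbp7 stood apart. It encodes a cellular retinol-binding protein known from adipose tissue and its endothelium. The brighter probe was at 1.73 in LEC, 6.58 in BEC and -3.05 in FRC, and the dimmer probe at 0.46 in LEC, 5.32 in BEC and -4.23 in FRC. Both probes gave the order BEC, LEC, FRC with wide gaps. LEC was 27.5-fold higher than FRC by the first and 25.9-fold by the second, BEC was 795-fold and 752-fold higher than FRC, and LEC was 28.9-fold and 29.0-fold lower than BEC. The probes lie 3745 bases apart on the genome, and gave log2 differences of 4.78 and 4.70 for LEC minus FRC and of 9.63 and 9.55 for BEC minus FRC.

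The size of the Rbp7 ratio to FRC rests on a dim FRC signal. Against the dimmest signal still well above background on each array, BEC stood at 1992 times for the brighter probe and 832 times for the dimmer one, and FRC at 2.44 times and 1.08 times. The scanner intensities of the brighter probe were 887 in LEC, 34582 in BEC and 46.6 in FRC. With genes not well above background on the dimmer array at their lower bound, 2774 of 18806 for BEC against FRC, Rbp7 had the highest BEC minus FRC difference, and it was also the highest of the 15993 genes whose own probe was well above background on both arrays. Differences of bounded genes may be larger than their bound. In the same ranking it had the 150th highest LEC minus FRC difference of 18384 and the 30th lowest LEC minus BEC difference of 18205. Over the processing settings BEC minus FRC ranged from 7.88 to 9.67 and LEC minus FRC from 3.31 to 4.81, while LEC minus BEC, which uses no FRC value, ranged from -5.28 to -4.57.

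Crabp1 and Crabp2, the carriers of retinoic acid inside the cell, were not well above background on any array. Crabp1, on chr9:54616192-54616251, read 0.234 of the lowest signal well above background in LEC, 0.245 in BEC and 0.238 in FRC. Crabp2, on chr3:87752682-87752741, read 0.217 in LEC, 0.227 in BEC and 0.223 in FRC. Each gene had 1 probe, so a poor probe and little RNA cannot be told apart, and no fold is given. CRABP2 is known to be induced by retinoic acid and to deliver it to RAR in the nucleus.

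Stra6, through which cells take up retinol from its plasma carrier, was measured in every population. It was at 1.06 in LEC, 1.83 in BEC and 0.69 in FRC, with BEC highest. BEC was 2.20-fold higher than FRC and LEC 1.30-fold higher than FRC, and LEC was 1.70-fold lower than BEC. The LEC minus FRC difference of 0.38 reached -0.15 without scaling between arrays, so its direction depends on the scaling, while BEC minus FRC stayed between 1.01 and 1.17.

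The genes nearest to each called member were listed by their Euclidean distance in the LEC minus FRC and BEC minus FRC differences, over the 3 arrays and among 15589 genes well above background on all of them. Since both differences share the FRC array, the distance is a description only. Aldh1a1 lay closest to Ddr2, a collagen receptor (distance 0.09), Irx1, a homeobox gene (0.11), and Ces1d, a carboxylesterase (0.11). Aldh1a2 lay closest to Scara3 (0.04), a scavenger receptor family gene, Tmem119 (0.18) and Rab38 (0.20). Aldh1a3 lay closest to Gbx2 (0.06), a homeobox gene, Rnd3 (0.20), a small GTPase gene, and Sct (0.21), which encodes secretin. Between 22 and 36 genes lay within 0.5 of each of these dehydrogenase genes. For Rbp7 none did, and its nearest genes were Emcn, an endothelial sialomucin, at 1.24, Depp1 at 1.65 and Clic5 at 1.84.

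The rest of the pathway was read from lists of 61 other genes, of which 60 were on the array, 39 were well above background on all arrays, 13 on none, and 18 passed the 4-fold mark in at least 1 comparison. For LEC against FRC, 3 of 44 compared were higher in LEC and 8 higher in FRC, with a median log2 difference of -0.43. For BEC against FRC, 3 of 47 were higher in BEC and 10 higher in FRC, with a median of -0.25. For LEC against BEC, 4 of 45 were higher in LEC and 4 higher in BEC, with a median of -0.12. These shares stand beside the same all-gene percentages as those of the 9 genes.

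A list of 18 further genes was drawn up for the interconversion of retinol and retinal. Of these, 12 were compared for LEC against FRC and 13 for BEC against FRC. Against each endothelium 2 were called, both higher in FRC. Adh1, an alcohol dehydrogenase that oxidises retinol, was at 1.90 in LEC, 2.57 in BEC and 5.19 in FRC. LEC was 9.78-fold lower than FRC and BEC 6.16-fold lower, and a second probe of the gene gave differences of -3.37 and -2.63. Adh4, a related enzyme, was not well above background in LEC and was at -4.01 in BEC and -1.99 in FRC, which set LEC at least 4.63-fold and BEC 4.07-fold below FRC. Dhrs3, which reduces retinal back to retinol and is known to be induced by retinoic acid, was even, at 4.48 in LEC, 4.57 in BEC and 4.37 in FRC. Retsat, on that list but encoding retinol saturase, which does not make retinal, was 2.78-fold lower in LEC and 2.60-fold lower in BEC than in FRC.

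Uptake, binding and storage divided by gene. Rbp4, the plasma retinol carrier, was at -2.07 in LEC, -1.13 in BEC and 2.72 in FRC, 27.8-fold lower in LEC and 14.5-fold lower in BEC than in FRC. Lrat, which esterifies retinol for storage, was at -3.91 in LEC, not well above background in BEC and at 1.14 in FRC. It was 33.1-fold lower in LEC and at least 45.8-fold lower in BEC than in FRC, and a second Lrat probe gave -4.71 for LEC minus FRC. Both are best known from liver, where LRAT is a marker of stellate cells, and Rbp4 is also an adipocyte gene.

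Others in that list were higher in an endothelium. Scarb1, a lipoprotein receptor that also takes up carotenoids, was at 2.33 in LEC, 6.38 in BEC and 1.39 in FRC, 31.8-fold higher in BEC than in FRC. Lrp2, the endocytic receptor megalin, was at 0.33 in LEC, not well above background in BEC and at -2.72 in FRC, so LEC was 8.28-fold higher than FRC and at least 26.2-fold higher than BEC. Fabp5, a fatty acid-binding protein that can carry retinoic acid to PPAR delta, was at -1.67 in BEC and not well above background in LEC or FRC, so BEC was above FRC by at least 6.36-fold.

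**Figure D3:**
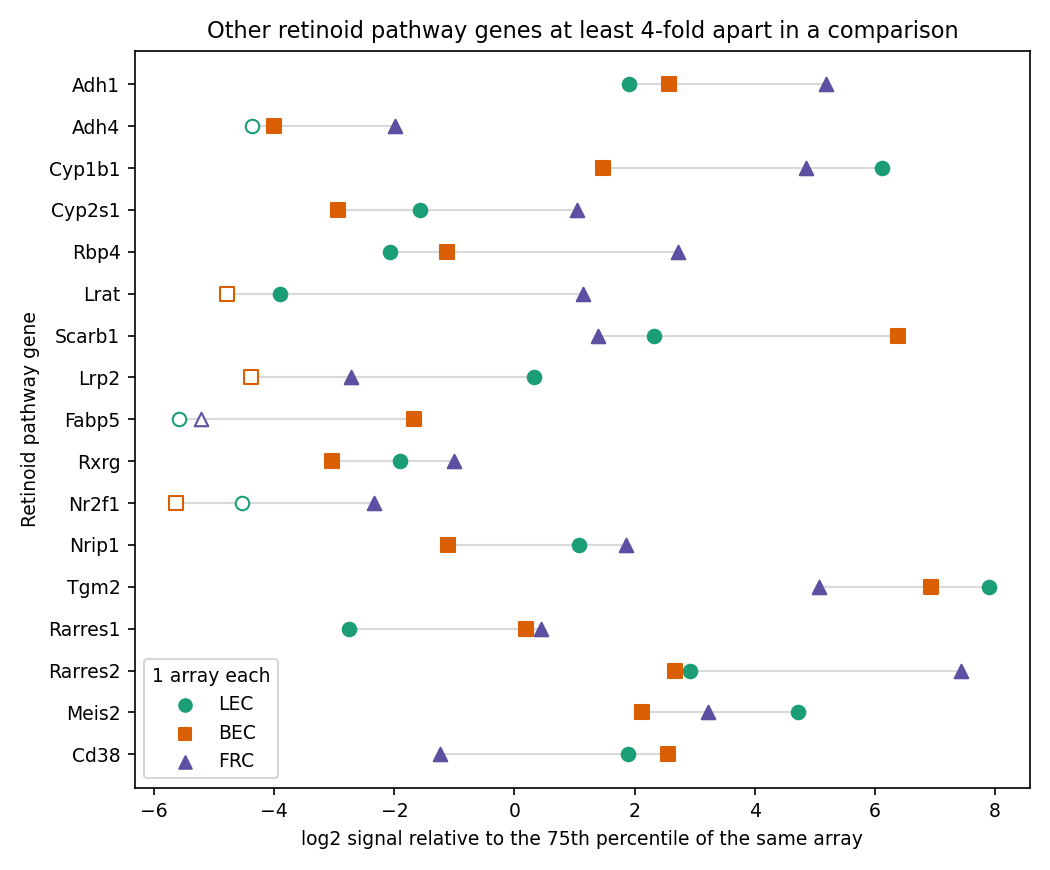
Signal of other retinoid pathway genes that differed by at least 4-fold in at least 1 comparison, on the LEC, BEC and FRC arrays, as log2 relative to the 75th percentile, with open symbols for values not well above background. Adh1, Rbp4, Lrat and Rarres2 are highest in FRC, Scarb1 is highest in BEC at 6.38, and Cyp1b1 is lowest in BEC at 1.48.

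Among other oxidising enzymes, Cyp1b1, a cytochrome P450 that can turn retinol into retinoic acid, was at 6.13 in LEC, 1.48 in BEC and 4.85 in FRC. It was low in BEC, 10.3-fold below FRC, and LEC was 25.1-fold above BEC and 2.42-fold above FRC. Cyp2s1, which can metabolise retinoic acid, was at -1.58 in LEC, -2.94 in BEC and 1.05 in FRC by its brighter probe, 6.19-fold lower in LEC and 15.9-fold lower in BEC than in FRC. Its other probe was well above background in BEC alone, so the probes oppose each other.

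Among the 12 genes of retinoid receptors and their coregulators, none of the 11 compared passed the 4-fold mark for LEC against FRC, beside 10.8% of all genes. For BEC against FRC 3 of 12 passed it, beside 14.2%, all higher in FRC, and for LEC against BEC 1 of 11, Nrip1, which was 4.57-fold higher in LEC, beside 6.78%. Rarb, a receptor gene known to be induced by retinoic acid, was at 0.23 in LEC, -0.89 in BEC and 0.67 in FRC, 2.95-fold lower in BEC than in FRC, while its second probe was not well above background on any array. Rxrg was 4.10-fold lower in BEC than in FRC and Nr2f1, which encodes COUP-TFI, at least 4.13-fold lower, both just past the 4-fold mark. Nrip1, a corepressor of nuclear receptors, was 7.81-fold lower in BEC than in FRC by its brightest probe and differed by -1.58 and -1.61 (log2) by the others. For LEC minus BEC the other Nrip1 probes gave log2 differences of 0.20 and 1.19, both short of the 4-fold mark that the brightest probe passed. Rxra was at 1.91 in LEC, 3.0998 in BEC and 2.92 in FRC, and Rarg was highest in BEC, 2.79-fold above FRC by its brightest probe.

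Genes known to be induced by retinoic acid in other cells went both ways. The list of 18 holds Cyp26b1, Stra6 and Crabp2 as well, and 15 were compared. In LEC relative to FRC, 2 passed the 4-fold mark upward and 3 downward, beside 4.89% and 5.93% of all genes. In BEC relative to FRC, 1 passed it upward and 2 downward, beside 6.58% and 7.57%. For LEC against BEC, 2 were higher in LEC and 2 in BEC, beside 3.39% and 3.38%. Rarres2, which encodes the chemoattractant chemerin, was at 2.92 in LEC, 2.67 in BEC and 7.43 in FRC, 22.8-fold lower in LEC and 27.1-fold lower in BEC than in FRC. Tgm2, transglutaminase 2, was the other way, at 7.91 in LEC, 6.93 in BEC and 5.07 in FRC, 7.14-fold above FRC in LEC and 3.64-fold above it in BEC. The other Tgm2 probes gave log2 differences of 3.11 and 3.38 for LEC minus FRC and of 2.32 and 2.62 for BEC minus FRC, both past the 4-fold mark for BEC, which the brightest probe missed. Cd38, an NAD-consuming ectoenzyme, exceeded its FRC level by 8.82-fold in LEC and 13.96-fold in BEC. Rarres1 was 9.23-fold lower in LEC than in FRC and even between BEC and FRC (1.19-fold). Meis2, a homeobox gene, was 6.05-fold higher in LEC than in BEC.

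Promoter sequence was available for 6 of the 9 genes in the RefSeq table of build GRCm38.p6, and Aldh1a3, Rdh10 and Crabp2 are named only. The 250 bases before the start of transcription are shown for the dehydrogenase genes that were highest in FRC and for Rbp7, which was lowest there, with capitals for CCAAT and ATGCAAAT. These motifs were chosen after the sequences had been read.
Aldh1a1, chr19:20601718-20601967, plus strand: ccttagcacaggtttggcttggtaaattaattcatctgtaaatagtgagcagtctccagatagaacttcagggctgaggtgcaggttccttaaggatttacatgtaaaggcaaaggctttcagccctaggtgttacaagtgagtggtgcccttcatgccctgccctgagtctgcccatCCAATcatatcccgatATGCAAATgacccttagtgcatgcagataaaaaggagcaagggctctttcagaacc
Aldh1a2, chr9:71215539-71215788, plus strand: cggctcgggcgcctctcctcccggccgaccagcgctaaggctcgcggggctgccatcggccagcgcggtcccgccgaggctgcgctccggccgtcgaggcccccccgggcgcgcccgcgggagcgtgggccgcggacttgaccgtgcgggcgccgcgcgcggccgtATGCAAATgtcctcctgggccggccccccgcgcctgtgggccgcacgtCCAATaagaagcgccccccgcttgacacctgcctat
Rbp7, chr4:149454969-149455218, minus strand: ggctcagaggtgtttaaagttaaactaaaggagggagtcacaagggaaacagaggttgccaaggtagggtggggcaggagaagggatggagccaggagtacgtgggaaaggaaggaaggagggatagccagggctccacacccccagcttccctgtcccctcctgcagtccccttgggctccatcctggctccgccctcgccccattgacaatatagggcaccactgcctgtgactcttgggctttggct
Both dehydrogenase promoters hold both motifs on the sense strand. In Aldh1a1 they begin 72 (CCAAT) and 56 (ATGCAAAT) bases before the start, and in Aldh1a2 36 and 84 bases before it, so their order is reversed. Searched on both strands, CCAAT was in 33.8% of 32851 promoters, ATGCAAAT in 1.60% and both in 0.767%. A second listed start of Aldh1a1 holds neither motif. The Rbp7 window holds neither. Stra6, which was not highest in FRC, holds CCAAT in 1 of its listed windows, 98 bases before the start, and that of Cyp26b1 holds TATAAA, found in 12.4% of promoters.

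Retinoic acid receptors are known to bind direct repeats of a half-site spaced by 5 bases (DR5), 1 base (DR1) or 2 bases (DR2). The half-site was taken as AGGTCA, with AGTTCA as a first accepted variant, GGTTCA as a further one and also GGGTCA, on either strand. DR5 was in 0.0883% of the 32851 windows, DR1 in 0.164% and DR2 in 0.174%. None of the windows of the 6 genes holds one, which says only that these letters are not within those 250 bases. Of the other retinoid genes, only Rarb and Cyp26a1 were looked up. Each holds a DR5, shown with the half-sites in capitals as the form of the element.
Rarb, chr14:16575507-16575535, minus strand: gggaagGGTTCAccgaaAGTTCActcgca
Cyp26a1, chr19:37697770-37697798, minus strand: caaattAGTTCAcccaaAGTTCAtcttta

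Markers of other cells moved with some of these values. Mesothelial cells, which are known to express Aldh1a1 and Aldh1a2, would fall within a gp38+ CD31- gate. Of 10 mesothelial markers, 2 were lower in LEC than in FRC past the 4-fold mark (median log2 difference -1.47) and 7 lower in BEC than in FRC (median -2.74). Their summed signal was 7.37 in LEC, 9.69 in BEC and 17.6 in FRC, in units of the 75th percentile, and without Cldn15, the largest share in BEC, 6.36 in LEC, 3.32 in BEC and 14.1 in FRC. Of the 10, 9 were well above background in LEC, 8 in BEC and 10 in FRC. Wt1, a transcription factor of mesothelium and also of some stromal cells, was at 0.76 in FRC and not well above background in LEC or BEC. Msln, mesothelin, was at 0.28 in LEC, -1.40 in BEC and 1.17 in FRC. Not every marker was highest in FRC. Muc16 was highest in LEC, at -2.11 in LEC, -3.49 in BEC and -2.41 in FRC. Cldn15 was highest in BEC, at 0.01 in LEC, 2.67 in BEC and 1.80 in FRC. The remaining ones were highest in FRC, Krt19 only just, at 0.90 in BEC and 0.93 in FRC. The part of mesothelial cells in the dehydrogenase values was not tested.

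Blood endothelial markers moved with Rbp7, with a median log2 difference from FRC of 4.32 in LEC and 7.31 in BEC, and of -3.17 for LEC minus BEC. Adipocyte markers did so in part. The 10 markers, which include Rbp4, summed to 299.6 in LEC, 850.3 in BEC and 37.7 in FRC, of which Fabp4, a gene that capillary endothelium also expresses, gave 288 in LEC, 815 in BEC and 25.6 in FRC. The other 9 summed to 11.7 in LEC, 35.7 in BEC and 12.1 in FRC. Of all 10, 9 could be compared, and relative to FRC 5 of them, Fabp4 included, passed the 4-fold mark upward in BEC and 2 downward. The 5 were Retn, Cidec, Cfd, Fabp4 and Pnpla2, and the 2 were Plin1 and Rbp4. Cfd was at 1.73 in LEC, 3.98 in BEC and -1.02 in FRC. Cidec was at -0.88 in LEC, 0.91 in BEC and -3.23 in FRC. Retn was at -0.70 in LEC, 1.31 in BEC and -2.08 in FRC. Like Rbp7, each of these was highest in BEC and lowest in FRC. Adipoq was at -0.66 in LEC, 0.80 in BEC and 0.38 in FRC, and Lep was not well above background on any array. Plin1, a lipid droplet coat gene, was not well above background in LEC and was at -3.88 in BEC and -0.23 in FRC. The part of either in the Rbp7 values was not tested. Dendritic cells of the mesenteric node are also known to express Aldh1a2. The 15 leukocyte markers, which pool lymphocyte and myeloid genes, summed to 14.005 in LEC, 11.3 in BEC and 9.11 in FRC. Without Lyz2, a myeloid gene, they summed to 4.62 in LEC, 7.04 in BEC and 3.71 in FRC. Of the dendritic cell genes among them, Itgax was at -2.83 in LEC, -3.07 in BEC and -3.03 in FRC. Xcr1 was at -0.41 in LEC, -0.40 in BEC and -0.30 in FRC. The part of dendritic cells in the Aldh1a2 values was not tested. Ptprc, Cd79a and Ccr7 were past the 4-fold mark in BEC relative to FRC, and Cd79a and Ccr7 in BEC relative to LEC. Itgam was not well above background on any array. Intestinal epithelial markers summed to 1.66 in LEC, 1.25 in BEC and 2.30 in FRC, and without Krt20 to 1.58 in LEC, 1.21 in BEC and 0.906 in FRC.

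**Figure D4:**
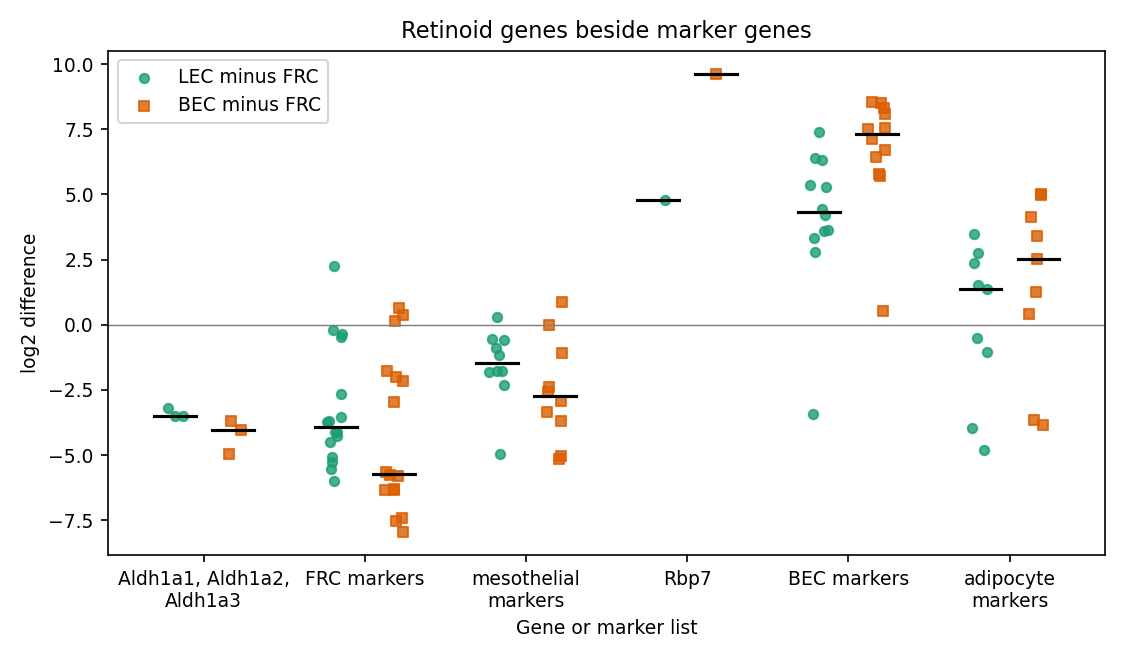
Log2 differences LEC minus FRC and BEC minus FRC of the 3 retinal dehydrogenases and of Rbp7 beside those of single genes of 4 marker lists, with a bar at each median. FRC markers have medians of -3.93 and -5.70, mesothelial markers of -1.47 and -2.74, adipocyte markers of 1.38 and 2.54, and Rbp7 lies at 4.78 and 9.63.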

How the data were processed

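Per the file headers, the deposited scanner files of the authors hold the intensity of each spot of single-colour Agilent mouse arrays, background-subtracted and not scaled between arrays. Agilent Feature Extraction 10.7.3.1 made them, per the submitters' processing notes. Per the labels' protocols, 30 to 50 ng of total RNA were amplified in 1 round and labelled with an Alexa Fluor dye. The 75th percentile intensity was 268 in LEC, 361 in BEC and 387 in FRC. No spot was saturated.

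Outlier-marked spots were left out, which removed 18 probes, and spots of a probe were averaged. From each log2 intensity the array's own 75th percentile was subtracted. The brightest probe by mean represents a gene, and genes with any probe well above background on either array were compared. Where the dimmer array had no such probe, its value was raised to the lowest one well above background if it lay under that, which gives folds of "at least" a size. Gene names were updated by RefSeq accession for 26690 probes with a GRCm38.p6 table.

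Named genes are the 9 retinoid genes, pathway genes past 4-fold in any comparison, the 3 nearest genes of each called member, and gate genes, with other list genes added as examples after their values were seen. Some list genes are counted but not reported here by name. The members and lists were chosen with earlier results of these data known. The steps were tested on simulated data. Python 3.11.15, pandas 2.3.3, numpy 2.4.6, R 4.3.3 and limma 3.58.1 (normexp) were used. The number of arrays limits the precision.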

Additional observations from a re-analysis of the deposited data

How the results depend on the processing

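No difference past the 4-fold mark changed its direction under any setting tried. Of 1253 single-gene differences under other settings, 810 moved by less than the spot error of a difference and 443 by more. No replicate could be left out and no test was made, since each population had 1 array. No paired analysis was possible because no population had a second array. With a 2-fold mark, 2 of the retinoid genes were higher in BEC than in FRC (Rbp7 and Stra6) and 1 higher in LEC than in BEC (Aldh1a2). Cyp26b1 then joined the retinal dehydrogenases as higher in FRC, 3.26-fold against LEC and 2.11-fold against BEC. At that mark 2397 and 2460 of 18443 genes were higher in LEC and in FRC. For BEC and FRC it was 3157 and 3105 of 18833, and for LEC and BEC 2009 and 1863 of 18324. The other pathway genes gave 5 higher in LEC and 15 in FRC, and 5 higher in BEC and 16 in FRC. Between LEC and BEC they gave 8 higher in LEC and 7 in BEC. With an 8-fold mark they gave 5 higher in FRC than in LEC, 5 higher in FRC than in BEC, and 2 higher in LEC and 1 in BEC. Averaging probes gave 1 retinoid gene higher in LEC than in BEC. With normexp background correction 1 other pathway gene was higher in BEC than in LEC. Without scaling between arrays the median of all genes was -0.52 for LEC minus FRC and -0.50 for LEC minus BEC, calls higher in LEC made up 28.2% of calls against FRC (45.2% with scaling) and 29.4% against BEC (50.1% with scaling), and Cyp26b1 passed 4-fold for LEC minus FRC, at -2.24. Over all genes, 902 and 1094 were called higher in LEC and in FRC, 1240 and 1426 higher in BEC and in FRC, and 622 and 620 higher in LEC and in BEC. Normexp gave 557 and 660, 687 and 856, and 304 and 324, a 2-fold mark 2397 and 2460, 3157 and 3105, and 2009 and 1863, and an 8-fold mark 449 and 583, 631 and 748, and 201 and 251. Without a filter on dim probes LEC against BEC gave 1019 and 875, and without scaling 391 and 939, and the cause was not tested. The deposited series matrix, linear intensity values of the authors with a median of 40.2 in every column, had a correlation of 0.99998 with the scanner values above its lowest value of 15 on each array. Median scaling, quantile normalization, the series matrix and keeping outlier spots left each count of retinoid and pathway genes within 1.5 times.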
